A study of Mus musculus with 6 samples.

Results

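The constitutive proteasome subunits were taken as every probe set that the array annotation ties to a single gene symbol beginning with Psma, Psmb, Psmc or Psmd and followed by a number, without the immunoproteasome genes Psmb8, Psmb9 and Psmb10. This gave 76 of the 45037 probe sets tested, or 37 of the 18193 genes named. The study compared cortex of HtrA2 knockout mice with cortex of their wild type littermates, all at postnatal day 29. There were 3 HtrA2 knockout and 3 wild type arrays. The sources used here do not name the allele, the strain or the sex, nor do they say that each array was a separate animal; the p-values therefore measure only how far these samples spread. HtrA2 is a protease that works between the inner and outer membranes of mitochondria. Of the 37 genes, 34 encode subunits or assembly factors of the proteasome found in most cells. The other 3 are Psma8, a subunit of the testis, Psmb11, a subunit of the thymus, and Psmc3ip, which fits the naming rule but encodes a partner of meiotic recombination enzymes and no subunit.

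The proteasome degrades proteins tagged with ubiquitin. Its barrel-shaped core, the 20S particle, has outer rings of alpha subunits (Psma genes) that gate the entrance and inner rings of beta subunits (Psmb genes), of which Psmb5, Psmb6 and Psmb7 carry the proteolytic sites. A 19S cap binds ubiquitin chains, removes them, and unfolds substrates with a ring of ATPases in its base (Psmc genes). Psmd genes encode other subunits of the base, subunits of the lid, and some chaperones that assemble the cap. When proteasome activity is short, the transcription factor NRF1, encoded by Nfe2l1, raises many of these genes together through antioxidant response elements in their promoters. In neurons the proteasome also takes part in the turnover of synaptic proteins.

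Because that element is the known route to a joint rise of the subunits, their promoters were searched for TGACNNNGC on both strands, over 250 bases before to 50 bases after the start of each gene in RefSeq's promoter table (build GRCm38.p6). Promoters were found for 30 of the 37 genes. The motif occurred in 5 of these 30 genes (16.7%), against 14.0% of all 27025 genes in the table. CCAAT, the motif of NF-Y, occurred in 13 of 30 (43.3%), against 41.1% of all genes; the motifs can share bases at their ends. The 5 stretches below are the ones that hold TGACNNNGC, shown 5′ to 3′ on the strand of the gene and ending at or before its start, with the motif in capitals (as its reverse complement where it lies on the opposite strand). They lie at chr11:70525277-70525356, plus strand (Psmb6), chr14:54617996-54618075, minus strand (Psmb5), chr5:123228110-123228189, plus strand (Psmd9), chr11:107479278-107479357, plus strand (Psmd12) and chr14:45329574-45329653, plus strand (Psmc6).
Psmb6: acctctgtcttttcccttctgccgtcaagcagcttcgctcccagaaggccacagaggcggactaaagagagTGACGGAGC
Psmb5: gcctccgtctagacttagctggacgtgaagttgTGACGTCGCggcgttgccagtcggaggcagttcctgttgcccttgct
Psmd9: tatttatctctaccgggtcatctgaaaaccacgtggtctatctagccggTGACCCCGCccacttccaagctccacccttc
Psmd12: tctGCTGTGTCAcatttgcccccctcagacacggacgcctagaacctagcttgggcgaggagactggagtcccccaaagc
Psmc6: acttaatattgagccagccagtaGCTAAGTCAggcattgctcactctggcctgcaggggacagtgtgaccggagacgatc
In Psmb6 the motif ends on the base just before the start, in Psmb5 its first base lies 47 bases before the start, and in Psmd9 31 bases before it. In Psmd12 and Psmc6 it lies 247 and 227 bases before the start. A match shows only that the letters are present.

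Values are levels after RMA, an array normalization, on the log2 scale. A difference is knockout minus wild type on that scale and is followed by its standard error (±), always with 3 arrays a group. All probe sets were tested together with limma, and p-values were adjusted over the 45037 by Benjamini-Hochberg; an adjusted p under 0.05 passed. Each gene is described at its brightest probe set, by mean level over the 6 arrays, unless another is named.

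Array medians lay between 6.40 and 6.45 in knockout and between 6.42 and 6.43 in wild type. Htra2 itself had 2 probe sets, which went opposite ways and both passed the test. One was 6.42, 7.08 and 6.45 in knockout, against 8.89, 8.86 and 9.02 in wild type (-2.27 ± 0.17), and the other 9.35, 9.35 and 9.27 in knockout, against 8.23, 8.12 and 8.28 in wild type (1.11 ± 0.08). Where they lie with respect to the deletion is unknown here. The level of Y-linked genes was 3.93 in knockout replicate 3 and 3.89 in wild type replicate 1, against 5.90 and 6.00 in the other knockout and 5.91 and 5.93 in the other wild type arrays, so each group held 1 array that differed from the rest in this. Knockout replicate 2 stood apart: its mean absolute deviation from its group mean was 0.136, against 0.0956 and 0.0941 in the other knockout arrays and 0.0618 to 0.0789 in wild type. The mean level of 9 measured cortical neuron markers was 11.83 to 11.86 in knockout and 11.98 to 12.02 in wild type arrays, with 1 lower, Neurod6, and 0 higher. Of 5 microglia markers 2 were lower, of 5 astrocyte markers 1 was lower, of 2 measured blood markers 1 was lower, and 0 of 4 oligodendrocyte, 4 endothelial, 5 meningeal, 4 choroid plexus and 3 striatal markers passed. Microglia markers averaged 9.24 to 9.39 in knockout and 9.52 to 9.74 in wild type. Meningeal markers averaged 8.67 to 9.26 in knockout and 8.33 to 8.64 in wild type. Astrocyte markers averaged 11.38 to 11.46 in knockout and 11.59 to 11.68 in wild type. With knockout first, oligodendrocyte markers averaged 11.45 to 11.64 and 11.68 to 11.87, and endothelial markers 8.79 to 8.85 and 8.62 to 8.73. Blood markers averaged 5.32 to 5.73 and 5.96 to 6.00, and striatal markers, which overlapped, 7.58 to 7.68 and 7.47 to 7.63. The choroid plexus markers averaged 5.61 to 5.78 in knockout, against 5.90 and 6.14 in wild type replicates 1 and 3 and 7.75 in wild type replicate 2. In whole tissue, fewer cells of a type and less RNA per cell cannot be told apart, and the part of these markers in the results below was not tested.

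No constitutive proteasome gene passed the test in knockout cortex. Of the 76 probe sets 0 passed, where 1.77% of all probe sets did (0.884% higher and 0.884% lower), and of the 37 genes 0 had a probe set that passed, where 3.3% of all genes did. At an unadjusted p under 0.05 there were 7 of 76 probe sets (9.21%), 3 higher and 4 lower, against 16.9% of all probe sets. Limma-trend with robust moderation called 2 probe sets, Psmb6 as higher and Psmd11 as lower. The differences were small on both sides: over the 34 subunits and assembly factors they ran between -0.18 and 0.25, and their 95% intervals, unadjusted for their number, between -0.47 (Psmc4) and 0.42 (Psmb6). For each of the 34 genes at its brightest probe set, these intervals reached at most a 1.38-fold lower or a 1.33-fold higher level. The median size of the difference, whatever its sign, was 0.08 over the 37 genes and 0.10 over all genes.

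**Figure D1:**
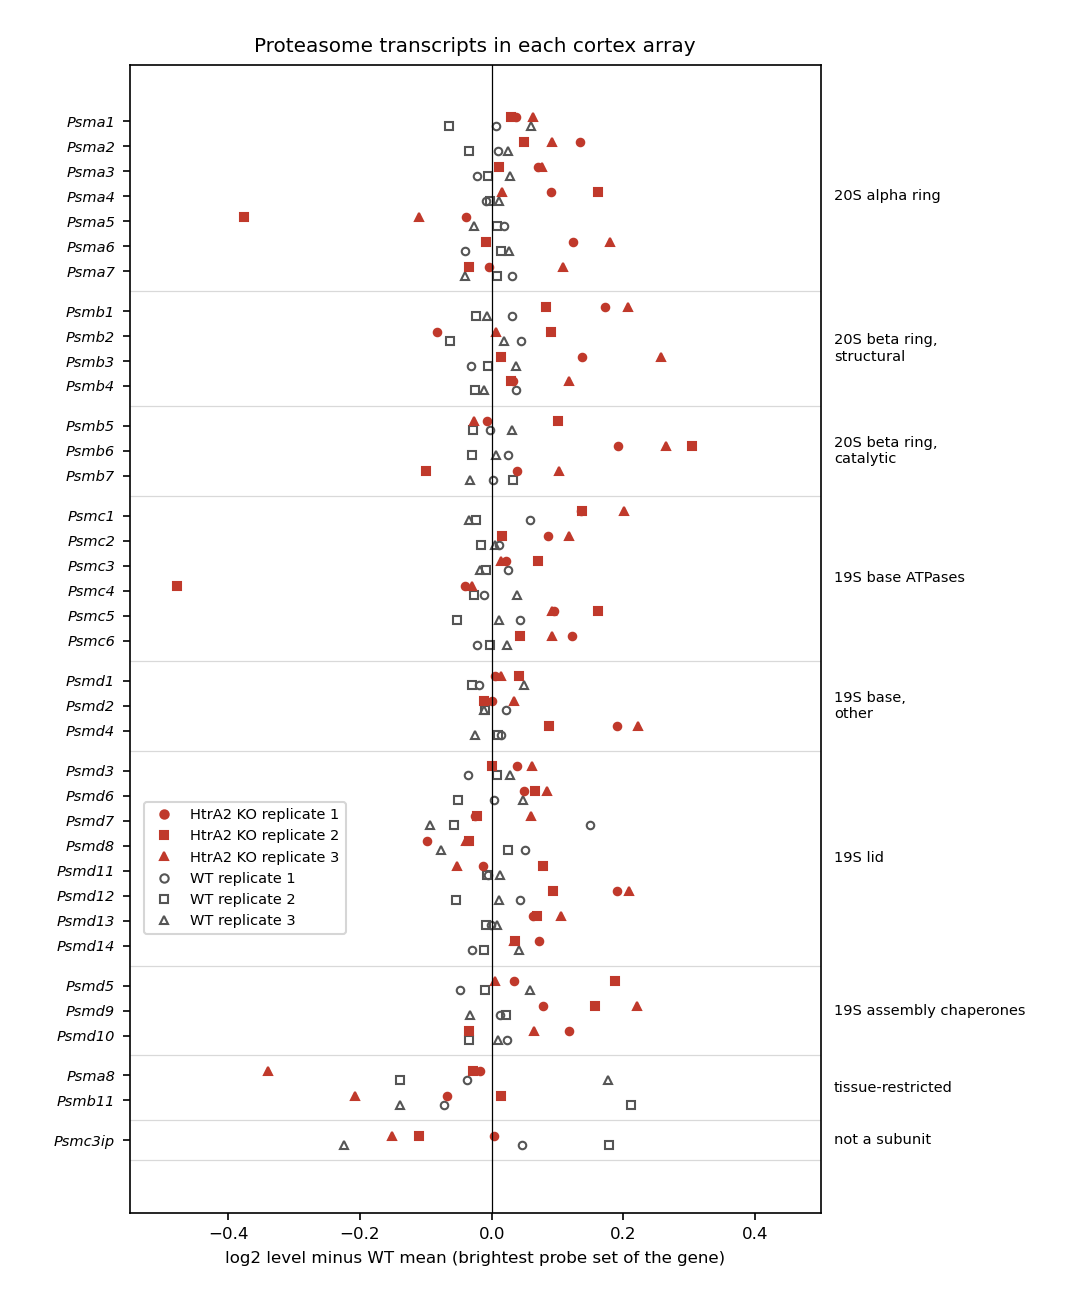
Level of each of the 37 genes in each array, as the log2 level minus the wild type mean at the brightest probe set, with the knockout arrays (filled red) above the wild type arrays (open grey) in each row and replicates 1, 2 and 3 as circle, square and triangle. Most knockout points lie slightly to the right of 0, the highest at 0.30 (Psmb6), and the square of knockout replicate 2 lies far to the left for Psmc4 and Psma5.

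At the brightest probe set of each gene the small differences leaned to the positive side. The difference was above 0 for 31 of the 34 subunits and assembly factors and for 31 of all 37 genes, against 54.9% of all genes, and the median was 0.06 over the 34 and 0.05 over the 37, against 0.02 over all genes. Over all 76 probe sets the lean was smaller, with 49 above 0 (64.5%), against 51.3% of all probe sets. Above 0 were 42 of the 57 at or above the median level (73.7%), against 49.6% of all probe sets at that level. Below the median level 7 of the 19 were above 0 (36.8%). The groups did not overlap at 13 of 37 genes with knockout higher (35.1%), where 15.6% of all genes did so, and at 2 genes with knockout lower (5.41%), where 12.8% did. Over probe sets the counts were 22 of 76 higher and 8 lower, where 11.6% of all probe sets did so in each direction and 23.2% in either. In the single arrays the median deviation of the 37 genes from the wild type mean was 0.04, 0.04 and 0.06 in knockout replicates 1, 2 and 3, against 0.01, -0.01 and 0.01 in wild type replicates 1, 2 and 3. The same median over all genes was 0.015, 0.023 and 0.001 in knockout and -0.010, -0.004 and 0.014 in wild type. Relative to it the members stood at 0.024, 0.014 and 0.063 in knockout and at 0.020, -0.006 and -0.004 in wild type, so the groups overlapped, with knockout replicate 2 below wild type replicate 1. Of the 34, further quantile normalization turned the sign of Psmd7, array weights those of Psmb2 and Psmd11, and median centring none. Without knockout replicate 2, 28 of the 34 remained above 0, without knockout replicate 3, 27, and without both arrays numbered 2, 26.

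**Figure D2:**
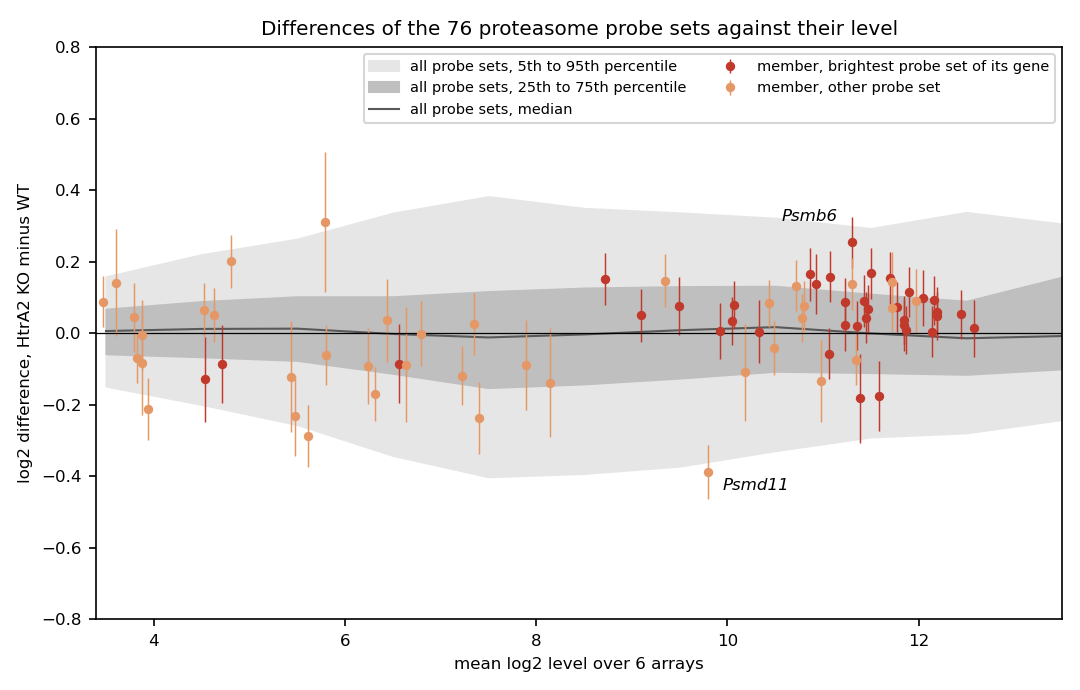
Difference between knockout and wild type (log2, vertical axis) of the 76 member probe sets against their mean level over 6 arrays (log2, horizontal axis), with bars for the standard error; red points are the brightest probe set of each gene, orange points the others, and grey bands hold the middle 50% and 90% of all probe sets in steps of 1 in level. Most red points gather just above 0, all of them between -0.18 and 0.25, and the lowest point is another, dimmer probe set of Psmd11 at -0.39.

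In the alpha ring, which gates the core, 6 of 7 genes had a difference above 0 and 0 passed, with a median of 0.05. The differences of Psma1, Psma2, Psma3, Psma4, Psma6 and Psma7 lay between 0.02 and 0.10. Psma2 was 12.25, 12.16 and 12.21 in knockout replicates 1, 2 and 3, against 12.12, 12.08 and 12.14 in wild type, groups that did not overlap. Psma5 was the exception in sign, with 11.63, 11.29 and 11.56 in knockout, against 11.69, 11.68 and 11.64 in wild type (difference -0.18 ± 0.10, adjusted p = 0.428). Its knockout arrays all lay below wild type, replicate 2 by far the most. A second bright probe set differed by -0.08 ± 0.07, again with every knockout array lower. A dim probe set of Psma5 went the other way, at 4.99, 4.82 and 4.92 in knockout, against 4.68, 4.72 and 4.73 in wild type (0.20 ± 0.07, adjusted p = 0.225). Psma1 had a dim probe set at 5.59, 5.34 and 5.48 in knockout, against 5.82, 5.76 and 5.70 in wild type (-0.29 ± 0.09, adjusted p = 0.141), all knockout arrays lower, while its brightest probe set differed by 0.04.

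Of the beta ring's proteolytic subunits, Psmb6, which carries the caspase-like site, had the largest positive difference of all 37 genes. It was 11.37, 11.48 and 11.44 in knockout replicates 1, 2 and 3, against 11.20, 11.15 and 11.18 in wild type. Every knockout array lay above every wild type array, and the difference was 0.25 ± 0.07, or 1.19-fold, with an adjusted p of 0.122. It passed under limma-trend (adjusted p = 0.0318) and with array weights (0.0463), and over all alternatives its adjusted p ran between 0.0318 and 0.410. Psmb5, with the chymotrypsin-like site, was 11.83, 11.94 and 11.81 in knockout, against 11.83, 11.81 and 11.87 in wild type (0.02 ± 0.07, 95% interval -0.14 to 0.19). Psmb7, with the trypsin-like site, was 12.61, 12.48 and 12.68 in knockout, against 12.58, 12.61 and 12.54 in wild type (0.01 ± 0.08, interval -0.17 to 0.20). The groups overlapped for both. The 5 genes whose promoters hold TGACNNNGC differed by 0.25 (Psmb6), 0.16 (Psmd12), 0.15 (Psmd9), 0.09 (Psmc6) and 0.02 (Psmb5). Of all 37 genes, with or without the motif, 31 had a difference above 0, and the median was 0.05. The part of the motif in the differences of the 5 genes was not tested.

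The 4 structural beta subunits all had differences above 0, between 0.005 for Psmb2 and 0.15 for Psmb1, and 0 passed. Psmb1 was 11.80, 11.71 and 11.83 in knockout, against 11.66, 11.60 and 11.62 in wild type (0.15 ± 0.07, adjusted p = 0.331). The groups did not overlap at this probe set, but the 2 other probe sets of Psmb1, which are dimmer, differed by -0.24 ± 0.10 and -0.12 ± 0.08. The probe sets of Psmb3 differed by 0.14 ± 0.08 and 0.13 ± 0.07, and those of Psmb4 by 0.06 ± 0.07 and 0.09 ± 0.09, the brighter first.

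Of the 6 ATPases of the 19S base, which unfold the substrate, 5 had a difference above 0 (median 0.08) and 0 passed. Psmc1 was 11.13, 11.14 and 11.20 in knockout, against 11.06, 10.97 and 10.96 in wild type (0.16 ± 0.07, adjusted p = 0.311), and the groups did not overlap. Psmc2, Psmc3, Psmc5 and Psmc6 differed by 0.07, 0.04, 0.12 and 0.09. Psmc4 had the most negative value of the 37 genes, and 1 array stood apart in it: 11.44, 11.00 and 11.45 in knockout replicates 1, 2 and 3, against 11.47, 11.45 and 11.52 in wild type (-0.18 ± 0.12, adjusted p = 0.527). Replicates 1 and 3 were within 0.1 of wild type, and without replicate 2 the difference was -0.04. Its second probe set was 10.49, 10.47 and 10.48 in knockout, against 10.41, 10.38 and 10.40 in wild type, with knockout higher in every array (0.08 ± 0.07).

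Among the other base subunits, the ubiquitin receptor Psmd4 was 11.61, 11.51 and 11.65 in knockout, against 11.44, 11.43 and 11.40 in wild type (0.17 ± 0.07, adjusted p = 0.295). Its groups did not overlap here or at a second probe set (0.14 ± 0.07), and overlapped at another, dimmer one (-0.09 ± 0.13). The scaffolds Psmd1 and Psmd2, on which the ATPase ring rests, differed by 0.02 ± 0.07 and 0.01 ± 0.07.

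In the lid, which holds the deubiquitinase, 7 of 8 genes had a difference above 0 (median 0.04) and 0 passed. Psmd14, the deubiquitinase itself, was 12.24, 12.20 and 12.20 in knockout, against 12.14, 12.16 and 12.21 in wild type (0.05 ± 0.07). Psmd12, a lid scaffold subunit, was 10.97, 10.87 and 10.99 in knockout, against 10.83, 10.73 and 10.79 in wild type (0.16 ± 0.07, adjusted p = 0.311), and all knockout arrays were higher. Psmd8 was 10.99, 11.05 and 11.05 in knockout, against 11.14, 11.11 and 11.01 in wild type (-0.06 ± 0.07), and the groups overlapped. Psmd3, Psmd6, Psmd7 and Psmd13 differed by 0.03, 0.07, 0.004 and 0.08. The other probe sets of Psmd13 differed by 0.15 ± 0.07, 0.31 ± 0.20 and -0.23 ± 0.11, the brightest first. The value of 0.31 was the largest positive difference of all 76 probe sets, but its groups overlapped. The dimmer probe sets of Psmd7 differed by -0.17 ± 0.08, with every knockout array lower, and by 0.06 ± 0.07.

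Psmd11, a lid subunit, had 8 probe sets that did not move alike. The dimmest of its 4 probe sets above a level of 9 came closest to the threshold of all 76: it was 9.62, 9.67 and 9.51 in knockout, against 9.93, 10.01 and 10.02 in wild type. Every knockout array was lower, by 0.39 ± 0.08, with an adjusted p of 0.0510. It passed as lower without knockout replicate 2 (adjusted p = 0.0232), under limma-trend (0.0177), with array weights (0.0104) and without dim probe sets (0.0233), and its adjusted p ran up to 0.253, without wild type replicate 2. The brightest probe set of Psmd11 was 12.12, 12.22 and 12.09 in knockout, against 12.13, 12.13 and 12.15 in wild type (0.004 ± 0.07). The next brightest differed by 0.04 ± 0.07 and -0.04 ± 0.08. Among the 4 probe sets that were dimmer still, the differences ran between -0.21 and 0.04. Which transcript forms each probe set detects is unknown here.

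The 3 chaperones that assemble the 19S base differed by 0.08 ± 0.08 (Psmd5), 0.15 ± 0.07 (Psmd9) and 0.05 ± 0.07 (Psmd10). Psmd9 was 8.72, 8.80 and 8.86 in knockout, against 8.65, 8.66 and 8.61 in wild type (adjusted p = 0.344), and its groups did not overlap. The testis subunit Psma8 and the thymus subunit Psmb11 were dim, with mean levels of 4.53 and 4.72, and differed by -0.13 ± 0.12 and -0.09 ± 0.11. Psma8 was 4.58, 4.57 and 4.26 in knockout, against 4.56, 4.46 and 4.77 in wild type. Psmb11 was 4.69, 4.78 and 4.55 in knockout, against 4.69, 4.97 and 4.62 in wild type. Psmc3ip was 6.61, 6.50 and 6.45 in knockout, against 6.65, 6.78 and 6.38 in wild type (-0.09 ± 0.11). The groups of all 3 overlapped.

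Knockout replicate 2 was the lowest of the 6 arrays at 20 of the 76 probe sets (26.3%), against 21.2% of all probe sets. These shares are not matched for level. At or above the median level it was lowest at 14 of the 57 (24.6%), against 30.0% of all probe sets at that level. At the brightest probe sets it was lowest for 5 of the 37 genes, against 23.4% of all genes. In 4 genes knockout replicate 2 lay clearly below its group at one bright probe set and not at another. Besides Psmc4 and Psma5, one probe set of Psmd6 was 11.03, 10.65 and 11.05 in knockout, against 11.03, 11.11 and 11.00 in wild type, while the brightest was 11.48, 11.50 and 11.52, against 11.44, 11.38 and 11.48. Psmc6 showed the same split, with 10.21, 9.81 and 10.37 in knockout, against 10.25, 10.25 and 10.22 in wild type at one probe set, and 11.31, 11.23 and 11.28, against 11.17, 11.19 and 11.21 at the brightest. The dimmest probe set of Psmc6 dropped as well, with 8.28, 7.69 and 8.26 in knockout, against 8.24, 8.19 and 8.20 in wild type. The probe sets of Psmc6 that dropped differed by -0.11 ± 0.14 and -0.14 ± 0.15. The 3′ minus 5′ difference of the array's actin control was 0.59 in knockout replicate 2, against 0.81 and 0.61 in knockout replicates 1 and 3 and 0.47 to 0.70 in wild type. Its part in the split was not tested. In all, 14 of the 20 genes with more than 1 probe set had probe sets of both signs.

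**Figure D3:**
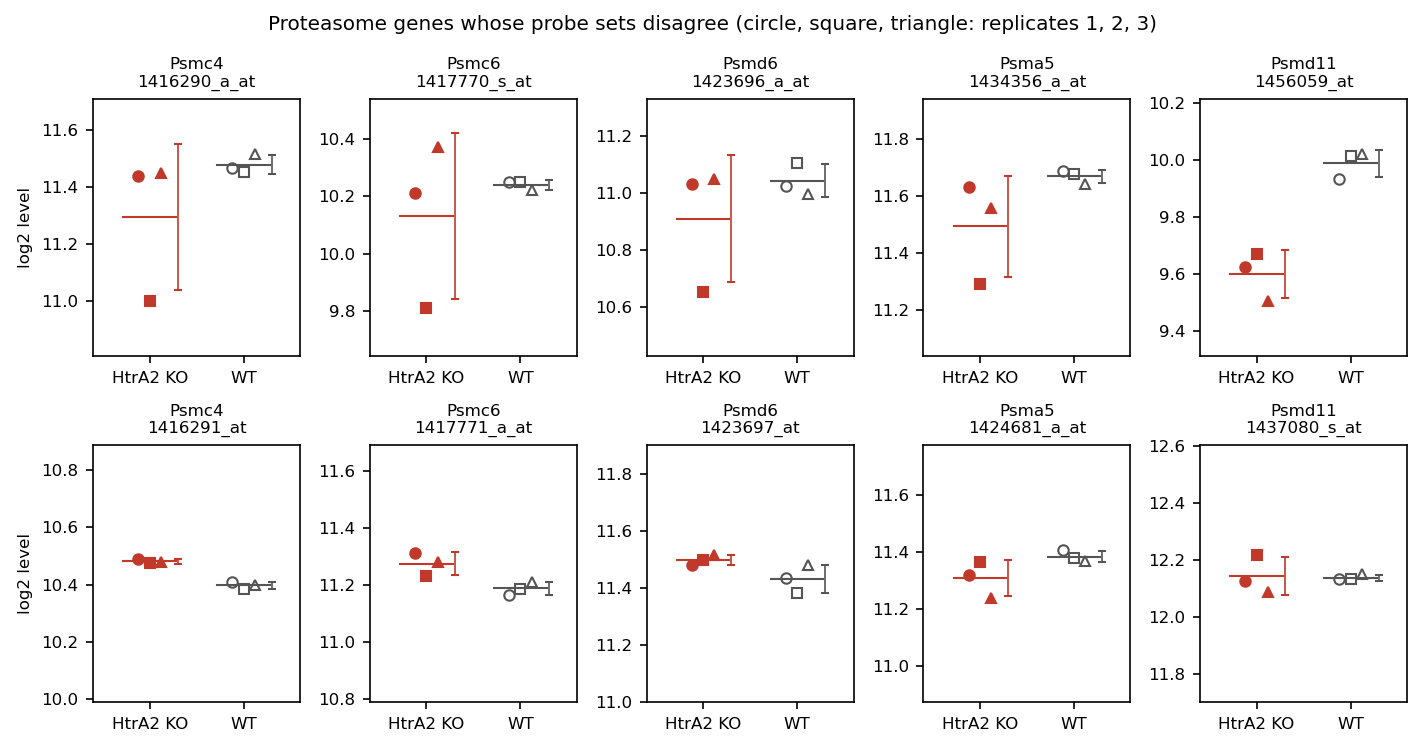
Log2 level in each array (vertical axis, the same span in each panel) at 2 probe sets each of Psmc4, Psmc6, Psmd6, Psma5 and Psmd11, with knockout (red) left of wild type (grey), a line at the group mean and a bar for the SD. In the upper row knockout replicate 2 (square) drops below the others for the first 4 genes and all knockout arrays lie below wild type for Psmd11, and in the lower row knockout replicate 2 is not the lowest array in any panel.

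The immunoproteasome genes, which interferon induces and whose products replace the proteolytic subunits, did not pass either (0 of 3, median difference 0.19). Psmb10 was 10.26, 10.30 and 10.42 in knockout, against 10.13, 9.97 and 9.90 in wild type (0.33 ± 0.09, adjusted p = 0.111), and the groups did not overlap. Psmb8 and Psmb9 differed by 0.19 ± 0.09 and 0.13 ± 0.11. To compare them with the constitutive subunit that each replaces, the log2 ratio within each array was tested by a two-sided exact permutation test, a comparison chosen after the values were seen. The ratio differed between knockout and wild type by 0.32 for Psmb10 over Psmb7, by 0.17 for Psmb8 over Psmb5 and by -0.13 for Psmb9 over Psmb6. The exact p-values were 0.1, 0.3 and 0.4, where 0.1 is the smallest that 3 against 3 arrays allow, and 0.3, 0.4 and 0.4 after adjustment over the 3 pairs.

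Of 44 measured genes that assemble, regulate or feed the proteasome, in 7 lists, 4 passed (9.09%), where 3.3% of all genes had a probe set that passed. The lists were chosen with earlier results of these data known, and a gene with more probe sets had more chances to pass. The shares are therefore a description and no test of the lists. Psmg1, a chaperone that pairs the alpha subunits during assembly of the core, rose: it was 9.68, 9.61 and 9.66 in knockout, against 9.20, 9.14 and 9.25 in wild type (0.45 ± 0.07, 1.37-fold, adjusted p = 0.0273). It was the 1 of 5 core assembly genes past the test; Psmg4 and Psmg2 differed by 0.30 ± 0.08 and 0.11 ± 0.07, and Pomp, which acts in beta ring assembly, by -0.16 ± 0.08. Psme1, a subunit of the interferon-induced activator that opens the core without ubiquitin, rose in the same range, with 10.30, 10.31 and 10.27 in knockout, against 9.79, 9.78 and 9.98 in wild type (0.44 ± 0.08, 1.36-fold, adjusted p = 0.0421). It was the 1 of 4 activator and inhibitor genes past the test. Psmf1, an inhibitor of the core, was 9.29, 9.51 and 9.49 in knockout, against 9.22, 9.13 and 9.07 in wild type (0.29 ± 0.09, adjusted p = 0.145), and Psme3 differed by 0.10 ± 0.07.

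Ufd1, a cofactor of the segregase p97 that hands ubiquitinated proteins to the proteasome, rose at both of its probe sets. The brighter was 10.41, 10.42 and 10.52 in knockout, against 9.92, 9.87 and 9.69 in wild type (0.62 ± 0.08, 1.54-fold, adjusted p = 0.0181), and the other differed by 0.52 ± 0.09 (adjusted p = 0.0310). It was the 1 of 19 genes in the list of transcription regulators, which also held p97 and its cofactors. There Nfe2l1, which encodes NRF1, was 10.35, 10.27 and 10.28 in knockout, against 9.98, 9.92 and 10.06 in wild type (0.31 ± 0.07, adjusted p = 0.0838), all knockout arrays higher, without passing. Nfe2l1 did pass without dim probe sets, under limma-trend, with array weights and with 1 probe set per gene. It did not pass with further quantile normalization, median centring, the replicate block or the Y-linked covariate. Nfe2l2, which encodes the related factor NRF2, differed by -0.11 ± 0.15, and Vcp, which encodes p97, by -0.10 ± 0.07. Uba6, which activates ubiquitin at the start of the cascade, fell: its brightest probe set was 8.02, 7.56 and 7.59 in knockout, against 8.34, 8.33 and 8.47 in wild type (-0.66 ± 0.13, 1.58-fold lower, adjusted p = 0.0490). Of its 4 other probe sets 3 differed by -0.28 to -0.75 and the dimmest by 0.02, none past the test.

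The remaining lists held no gene past the test. Of 8 measured subunits and factors bound to the proteasome, Uchl5, a deubiquitinase of the cap, and Zfand5, which activates the proteasome, had the smallest p and differed by 0.30 ± 0.09 and -0.23 ± 0.08. Of 4 measured ubiquitin shuttles, which carry tagged proteins to the cap, Ubqln4 differed by 0.25 ± 0.14, and by 0.20 ± 0.07 at its dimmer probe set, and Ubqln2 by -0.08 ± 0.07. The 4 calls changed with single arrays: 0 of the 4 genes passed without knockout replicate 3 or without any 1 of the wild type arrays, and Uba6 and Ufd1 alone passed without knockout replicate 1. Without knockout replicate 2, 10 of the 44 passed, Nfe2l1 among them. Calls over all probe sets, 796 in full, were 65 to 377 in the first 5 of these omissions and 3037 in the last. With the replicate number as a block 0 of the 44 genes passed, and with Y-linked expression as a covariate 1 did, Ufd1.

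**Figure D4:**
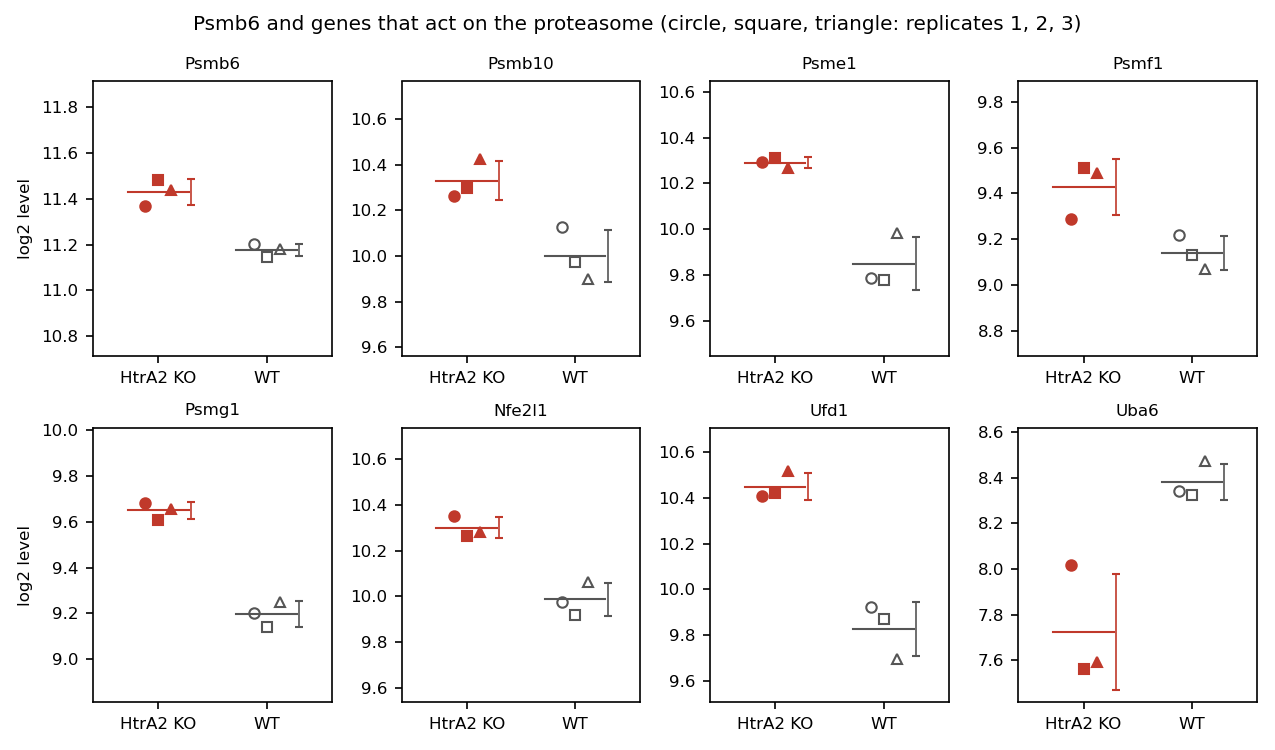
Log2 level in each array (vertical axis, the same span in each panel) of Psmb6, the member with the largest positive difference, and of 7 genes that act on the proteasome, with knockout (red) left of wild type (grey), a line at the group mean and a bar for the SD. The groups do not overlap in any panel, but the panels show selected genes, so this describes only those genes. Related genes that are not shown include some with overlapping groups, such as Psme3 and Nfe2l2. Over the whole array, knockout and wild type were fully separated in 23.2% of probe sets. Psmb6 differs by 0.25, Psmg1 by 0.45, Ufd1 by 0.62 and Uba6 by -0.66.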

How the data were processed

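Biotin-labelled RNA of cortex was hybridised to Affymetrix arrays, per the labels' protocols. The authors deposited log2 levels of 45101 probe sets, made by RMA per the submitters' processing notes; base 2 was inferred from the range. RMA brings the arrays' distributions close together, which would hide a shift common to most genes. The deposited levels still spread less in knockout replicate 2, with quartiles of 4.90 and 8.54. The lower and upper quartiles were 4.76 to 4.78 and 8.64 to 8.65 in the other knockout arrays. In wild type they were 4.80 to 4.82 and 8.62. Arrays give no counts, and 3 per group limit the precision.

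After removal of 64 control probe sets, 45037 were fitted by group with limma 3.58.1 under R 4.3.3, using lmFit and eBayes with two-sided tests. Gene names came from the platform annotation; all 37 member genes matched RefSeq's gene table of GRCm38.p6. Of the 76 member probe sets 8 end in _x_at and 3 in _s_at, designs that can bind related transcripts. Array values are given for any member past the test, for the 6 largest differences in each direction, and where a gene's probe sets differed in sign and 1 had an unadjusted p under 0.01. From each related list those past the test, or else the 2 smallest p, are named. Psma2, Psmb5, Psmb7, Psmb10, Psmd6, Psmd14, Psmc6, Psmf1, Nfe2l1, Nfe2l2, Vcp, Psme3, Psmg2, Psmg4 and Pomp were added after their values were seen. Members and lists were chosen with earlier results of these data known. The fit was tested on simulated data. The 17 alternatives covered probe set filters, limma-trend, scaling, array weights, a replicate block, a Y-linked covariate, thresholds and left-out arrays; the omission of both arrays numbered 2 was chosen after seeing the data.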

Additional observations from a re-analysis of the deposited data

How the results depend on the processing

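The count of 0 member probe sets and 0 member genes past the test became 1 without probe sets below the median level and at an adjusted p under 0.1 (Psmd11, lower, in both), and 2 with limma-trend or array weights (Psmb6 higher and Psmd11 lower); it stayed 0 in the other alternatives, and leaving out 1 array gave 0 to 1. The 796 calls over all probe sets became 1757 without dim probe sets, 1770 with limma-trend, 4205 with array weights, 154 with the replicate block, 441 with the Y-linked covariate, 79 and 2035 at adjusted p under 0.01 and 0.1, 314 without both arrays numbered 2, and 65 to 3037 without 1 array. The 4 related genes became 12 with array weights, 0 with the replicate block, 1 with the Y-linked covariate, 0 at 0.01, 1 without both arrays numbered 2, and 0 to 10 without 1 array. The median of the 37 member genes, 0.05, was 0.0649 with array weights and 0.0409 to 0.0664 without 1 array. Where a fit uses fewer arrays or other weights, its construction changes the power; other causes were not tested. Same-numbered arrays did not deviate together (correlations of -0.20, -0.04 and -0.17). With so few arrays in a group, these values cannot decide whether equal numbers mark a shared litter or processing batch. What the numbers stand for is unknown here. With the replicate block 0 member probe sets passed. Among the 14 named member probe sets, the sign turned for Psmb11 in 1 alternative and for Psmc3ip in 2, never past the test. Signal limits the dim probe sets: 19 of the 76 lie below the median level of all.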
